A study of Mus musculus with 6 samples.

Results

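The Wnt genes described here are 50 of the 24391 gene symbols in a count table from newborn mouse brain. They were chosen by a rule on gene names that was set with earlier results of these data known. The set holds 19 Wnt ligands, 10 Frizzled receptors, the 2 co-receptors Lrp5 and Lrp6, 8 secreted inhibitors of the Sfrp and Dkk families, Axin1 with the 2 tankyrases Tnks and Tnks2, the transcription factors Lef1 and Tcf7, and 6 feedback targets (Axin2, Nkd1, Notum, Rnf43, Znrf3 and Lgr5). RNA came from single brain hemispheres frozen at postnatal day 0, 3 labelled Celf2 -/- (null) and 3 labelled Celf2 +/- (heterozygous). Both groups therefore carry at least 1 disrupted Celf2 allele, and no wild-type brain is part of the comparison. The labels give neither strain, sex nor litter, and they do not describe how the allele was made. Libraries are named by the numbers in the labels, 6, 7 and 11 for heterozygous and 2, 4 and 10 for null, and values of single libraries are given in that order.

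Wnt proteins are secreted, lipid-modified ligands that bind a Frizzled receptor together with Lrp5 or Lrp6. In the canonical branch this disables a destruction complex built on Axin, so that beta-catenin accumulates and activates genes together with Lef1 and Tcf7 family factors. Tankyrases mark Axin for degradation and thereby favour signalling, while Axin2, Nkd1, Notum, Rnf43 and Znrf3 are induced by the pathway and dampen it. In the developing forebrain Wnt ligands pattern the dorsal midline, regulate progenitors, guide axons and, through Wnt7a and Wnt7b, direct the growth of brain vessels. CELF2 is an RNA-binding protein that recognises GU-rich sequence, often in the 3′ untranslated region of messenger RNAs.

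That binding preference is the reason for showing the few Wnt genes with such an element. The annotated 3′ UTRs of the mouse build GRCm38 (GENCODE M21, longest per gene) were searched on the transcript strand for TGTTTGTTTGT, and overlapping matches were counted. All 50 genes had an annotated 3′ UTR, and 4 of them (8%) held at least 1 match, of which 3 (Wnt5a, Lrp6 and Tcf7) are described here. Of the genes tested for expression differences, 4 of 44 Wnt genes (9.09%) held it, against 600 of 14426 genes with a 3′ UTR (4.16%). The Wnt genes also had longer 3′ UTRs, with a median of 1898 bases against 1176 over all genes tested. The first match of each of these 3 genes is printed with its flanks, 5′ to 3′ on the transcript strand, with the element in capitals.
Wnt5a: ttgggtttTGTTTGTTTGTttgtttgt
Lrp6: ttggttttTGTTTGTTTGTtttgtttt
Tcf7: aagtttttTGTTTGTTTGTtttaactt

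The Wnt5a site lies at chr14:28523541-28523567 on the plus strand, and 4 overlapping matches there form 1 GU-rich run, the first of which starts at base 609 of a 3′ UTR of 4508 bases. The Lrp6 site lies at chr6:134447038-134447064 and the Tcf7 site at chr11:52252675-52252701, both on the minus strand. A match describes the letters and does not show binding.

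Library totals ran from 28831997 to 36531980 counts. Levels are CPM, counts scaled to a common library total after adjustment by the trimmed mean of M-values (TMM), and levels of different genes are compared only as CPM per kilobase of the deposited gene length. Celf2 itself was at 408 ± 48.5 CPM in heterozygous and 390 ± 58.3 CPM in null libraries (SD, n = 3 each, as for every mean below). Single libraries held 458, 403 and 362 CPM in heterozygous 6, 7 and 11 and 448, 390 and 331 CPM in null 2, 4 and 10, so the groups overlapped. The fold change of Celf2 was -0.07 (log2, 95% interval -0.32 to 0.19). A count over the whole gene cannot tell a transcript of the disrupted allele from an intact one and so leaves the genotypes unchecked, and null and heterozygous mean the libraries so labelled throughout. Null 2 stood apart in the share of counts on the ribosomal RNA precursor Rn45s, 11.8% against 0.194% to 1.27% elsewhere. Neural tissue was present throughout, with 6 pan-neuronal genes summing to between 5226 and 5979 CPM. Null 2 was also low in 6 midbrain genes, which summed to 4.88 CPM there and to 31.4 to 43.6 CPM in the other 5 libraries, with Pitx3 and Foxa2 at 0 in it. The part of these genes in the values of Dkk3, Lgr5 and Wnt2, given below with and without null 2, was not tested. Of the lists of regional markers, the sums of thalamus and habenula, midbrain and cerebellar granule lineage overlapped between the groups. All 6 midbrain genes nevertheless had negative fold changes, with a median of -0.58. Of these, 2 (En1 and Slc6a3) did not overlap, with null below, and 0 had an edgeR unadjusted p under 0.05. No list held a gene that passed edgeR's adjusted test. The telencephalic genes Emx1, Neurod6, Neurod2 and Tbr1 summed to 463 to 512 CPM in heterozygous and 642 to 677 CPM in null libraries. The 8 Hox genes of hindbrain and spinal cord summed to 9.82 to 81.1 CPM and 2.18 to 6.01 CPM, and neither of these sums overlapped. In whole-hemisphere RNA, fewer cells of a type and less RNA per cell cannot be told apart.

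Levels spread widely among the ligands, Frizzled receptors, inhibitors and feedback targets. Among the ligands Wnt7b, which deep cortical neurons express, lay far above the rest at 23.6 CPM per kilobase in heterozygous and 26.6 in null libraries. Wnt7a followed at 8.13 and 7.09 CPM per kilobase, and the ranges of the 2 genes over the 6 libraries, 21.8 to 28.3 and 6.10 to 8.86, did not overlap. Wnt5a (2.89 to 4.59), a ligand known mainly for beta-catenin-independent signalling, and Wnt4 (2.45 to 3.99) could not be ordered by their ranges. Wnt3 (1.96 to 2.91) overlapped Wnt4 but lay above Wnt2b (1.61 to 1.92). Wnt2b, Wnt6 and Wnt5b overlapped each other, and Wnt9a (0.700 to 1.17) lay below Wnt2b and Wnt5b. The dorsal midline ligands Wnt1 (0.228 to 0.488) and Wnt8b (0.120 to 0.665) were near the bottom of the ligands tested.

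**Figure D1:**
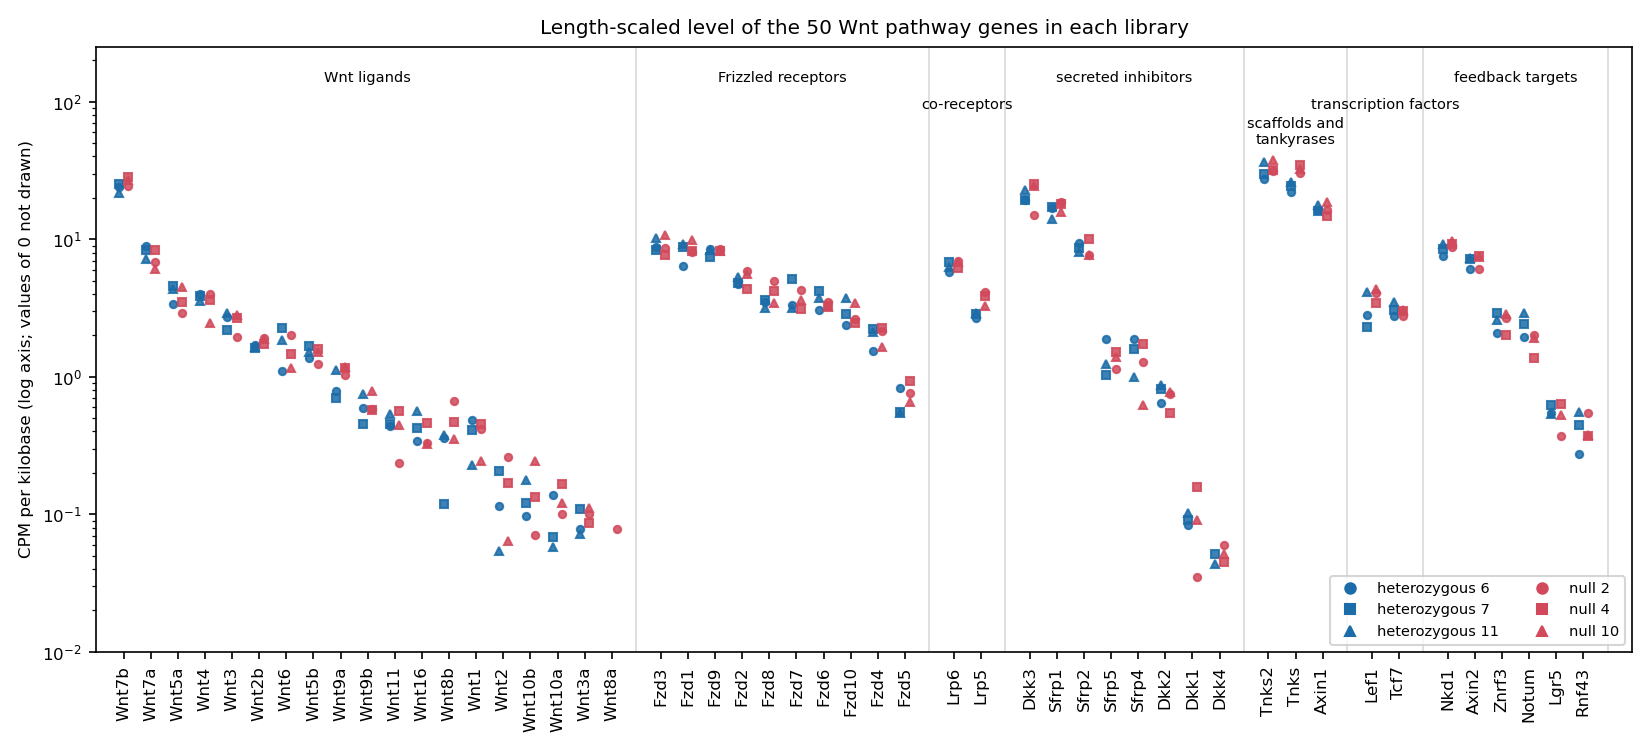
Level of each of the 50 Wnt pathway genes in CPM per kilobase on a log axis, with genes grouped by role and sorted by level within it, and with 1 point per library (blue heterozygous, red null). Levels span a wide range among the ligands, Frizzled receptors, inhibitors and feedback targets, while the blue and red points of most genes lie together. Values of 0 (Wnt8a in 5 libraries, Dkk4 in 1) are not drawn.

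Among the receptors Fzd3, needed for the growth of major axon tracts, Fzd1 and Fzd9 shared the top. Their ranges of 7.67 to 10.7, 6.42 to 9.81 and 7.46 to 8.55 CPM per kilobase overlapped. Fzd5 was lowest, at 0.548 to 0.925. Of the co-receptors, Lrp6 lay above Lrp5 in every library. Dkk3, a divergent member of its family, and Sfrp1, a secreted Frizzled-like antagonist of radial glia, led the inhibitors at 14.9 to 25.4 and 14.0 to 18.7, while Dkk1 and Dkk4 were near the detection limit. Tnks2 (27.4 to 37.9), Tnks (21.9 to 34.8) and Axin1 (14.7 to 18.7) were among the most abundant Wnt genes. Nkd1 and Axin2 led the feedback targets, at 7.55 to 9.68 and 6.05 to 7.52.

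A filter on low counts, which uses the group sizes but not the group means, left 44 of the 50 genes for testing. The other 6 (Wnt3a, Wnt8a, Wnt10a, Wnt10b, Dkk1 and Dkk4) did not exceed 0.544 CPM in any library. Wnt8a had 0 counts in 5 libraries, which allows up to 0.0807, 0.101 and 0.0854 CPM in heterozygous 6, 7 and 11 and up to 0.0889 and 0.102 CPM in null 4 and 10, and it had 0.118 CPM in null 2. Dkk4 had 0 counts in heterozygous 6 and at most 0.0788 CPM elsewhere. Such limits cover counting error only.

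None of the 44 Wnt genes tested passed edgeR's quasi-likelihood test at an adjusted p of 0.05 (0 of 44), where 0.00628% of all 15925 genes did, a single gene. At an unadjusted p of 0.05, 2 of 44 were higher in null libraries (Tnks and Lrp5, 4.55%), against 4.13% of all genes, and 0 of 44 were lower, against 2.93%. The groups did not overlap, with null above, for 3 of 44 (Tnks, Lrp5 and Wnt2b, 6.82%), against 6.21% of all genes, and with null below for 0 of 44, against 6.47%. These shares of higher genes lie near the background. DESeq2 called 1 of 44, Tnks, against 0.402% of all genes. Fold changes are given as log2 values, null against heterozygous, and such a value opens the brackets after a gene's levels below. They were positive for 22 Wnt genes and negative for 22, with a median of 0.003 against -0.001 over all genes tested. The median size of the change, regardless of sign, was 0.13 against 0.10. The 95% interval lay within 1.5-fold either way for 25 of 44 genes and within 2-fold for 41, the exceptions being the low ligands Wnt8b and Wnt2 and the inhibitor Sfrp4.

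**Figure D2:**
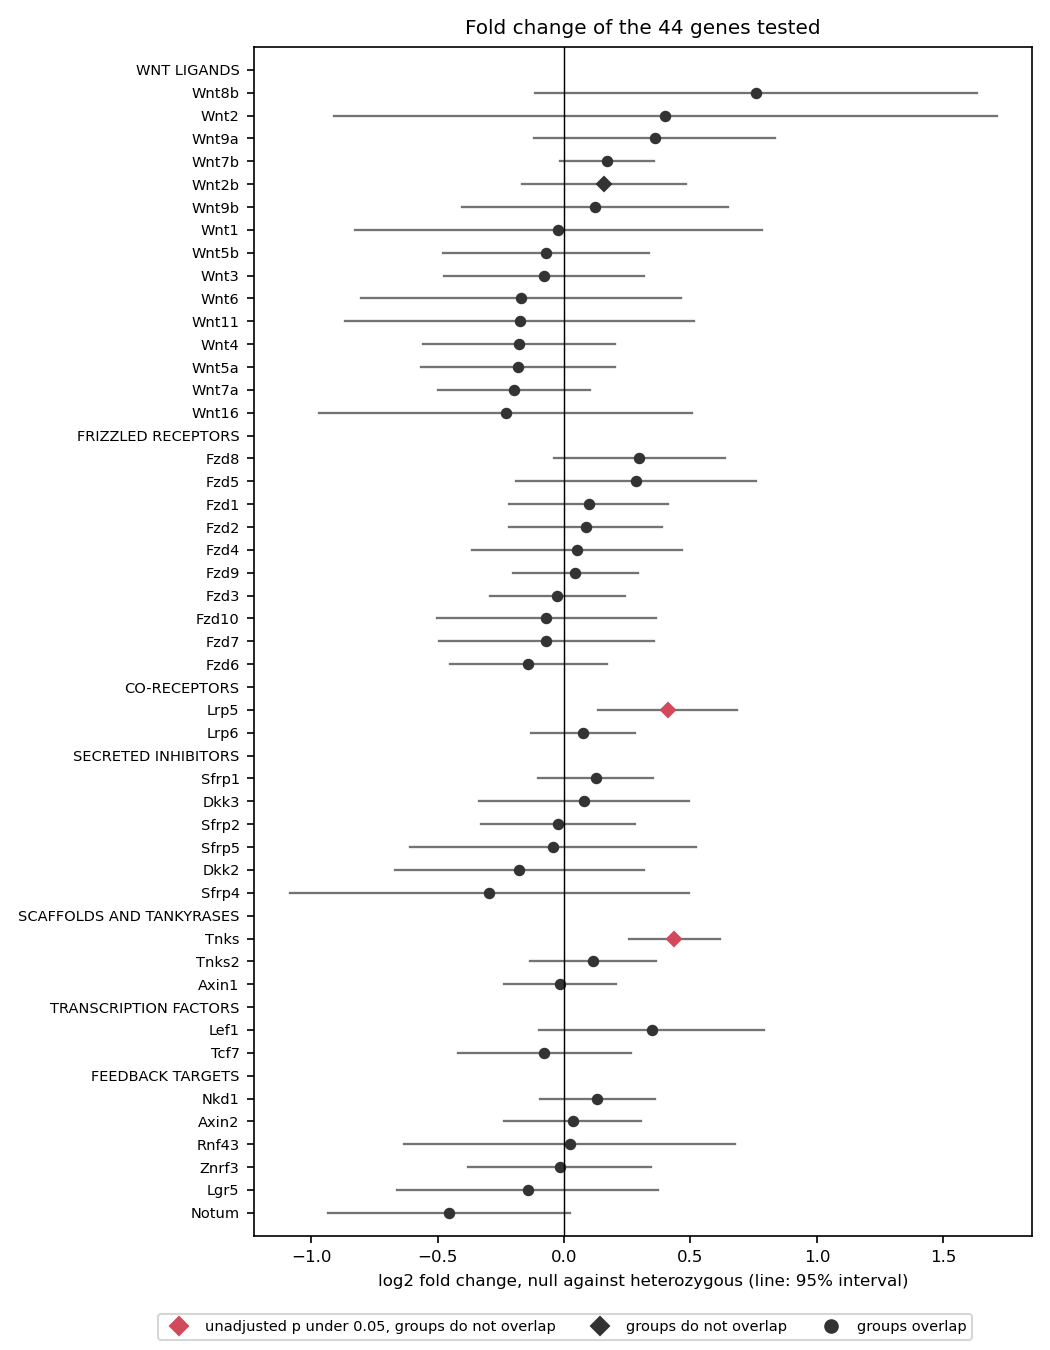
Log2 fold change, null against heterozygous, of the 44 Wnt pathway genes tested, by role, with 95% intervals as lines. The intervals of Tnks and Lrp5 (red diamonds) lie above 0, Wnt2b (black diamond) separates the groups with an interval that spans 0, and all other intervals span 0.

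Tnks, which encodes tankyrase 1, had the smallest p of the set. It measured 141, 157 and 168 CPM in the heterozygous libraries and 196, 224 and 210.1 CPM in the null libraries. Every null library thus lay above every heterozygous one. The means were 155 ± 13.4 and 210.1 ± 14.3 CPM, a fold of 1.35 (log2 fold change 0.44, SE 0.08, 95% interval 0.26 to 0.62). The edgeR unadjusted p was 2.34e-04 and the adjusted p 0.295, while DESeq2 gave an adjusted p of 0.0061. The call therefore depends on the tool, and across the fits by edgeR and limma-voom, those leaving out a library included, the log2 fold change stayed between 0.355 and 0.495 without passing the adjusted threshold.

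Its paralog Tnks2, with the same enzymatic activity, measured 178, 192 and 237 CPM in the heterozygous libraries and 205, 206 and 246 CPM in the null libraries. The groups overlapped, with heterozygous 11 above null 2 and 4 (0.11, SE 0.11, 95% interval -0.13 to 0.36, edgeR adjusted p = 0.902). Per kilobase, Tnks was at 0.798, 0.825 and 0.710 times Tnks2 in heterozygous 6, 7 and 11 and at 0.963, 1.09 and 0.861 times in null 2, 4 and 10. Null 10 lay closest to the heterozygous libraries in this ratio, which was chosen after the values were seen and carries no test. Axin1, the scaffold that tankyrases modify, was at 63.4 ± 3.37 and 62.7 ± 7.44 CPM (-0.02, 95% interval -0.24 to 0.21). Its interval allows a fold between 0.848 and 1.15.

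Lrp5, a co-receptor, measured 13.9, 14.8 and 15.1 CPM in the heterozygous libraries and 21.3, 19.9 and 16.9 CPM in the null libraries. The groups did not overlap, and null 10 lay closest to the heterozygous libraries. The fold was 1.33 (0.41, SE 0.12, 95% interval 0.14 to 0.68, edgeR adjusted p = 0.527, DESeq2 adjusted p = 0.193). Lrp6, the other co-receptor, measured 54.3, 64.3 and 58.8 CPM (heterozygous) against 64.9, 57.7 and 64.1 CPM (null), with overlap between the groups (0.07, SE 0.09, 95% interval -0.13 to 0.28, edgeR adjusted p = 0.929). With library size alone as the scaling, the Lrp6 value was -0.01, so no direction is given for it.

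Like Tnks and Lrp5, the summed level of the 4 telencephalic markers named above was higher in each null library than in any heterozygous one. The sums were 512, 481 and 463 CPM in heterozygous 6, 7 and 11 and 677, 642 and 662 CPM in null 2, 4 and 10. All 4 had positive fold changes, with a median of 0.43, and 3 had an unadjusted p under 0.05, though 0 passed edgeR's adjusted test, and Emx1 overlapped between the groups. None of the 4 was at 0 in any library. The sum of 6 immediate-early genes was 33.4 to 44.8 CPM in heterozygous libraries and 265, 849.8 and 33.7 CPM in null 2, 4 and 10, so null 10 lay within the heterozygous range. Tnks in null 10 was at 210.1 CPM, between the other null libraries, whereas Lrp5 there was at 16.9 CPM, the null value nearest to the heterozygous ones. From heterozygous 6 to 7 to 11 the telencephalic sum fell, whereas Tnks and Lrp5 rose. Emx1, Neurod2 and Tbr1 fell in that order, but Neurod6 was highest in heterozygous 11, at 177, 170 and 188 CPM. Among null libraries the sum was highest in null 2, where Tnks was lowest and Lrp5 highest. Neurod6 was lowest in null 2, at 243, 260 and 271 CPM in null 2, 4 and 10. The order within a group thus depends on the marker, and it carries no test. The part of either list in the Tnks and Lrp5 values was not tested.

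**Figure D3:**
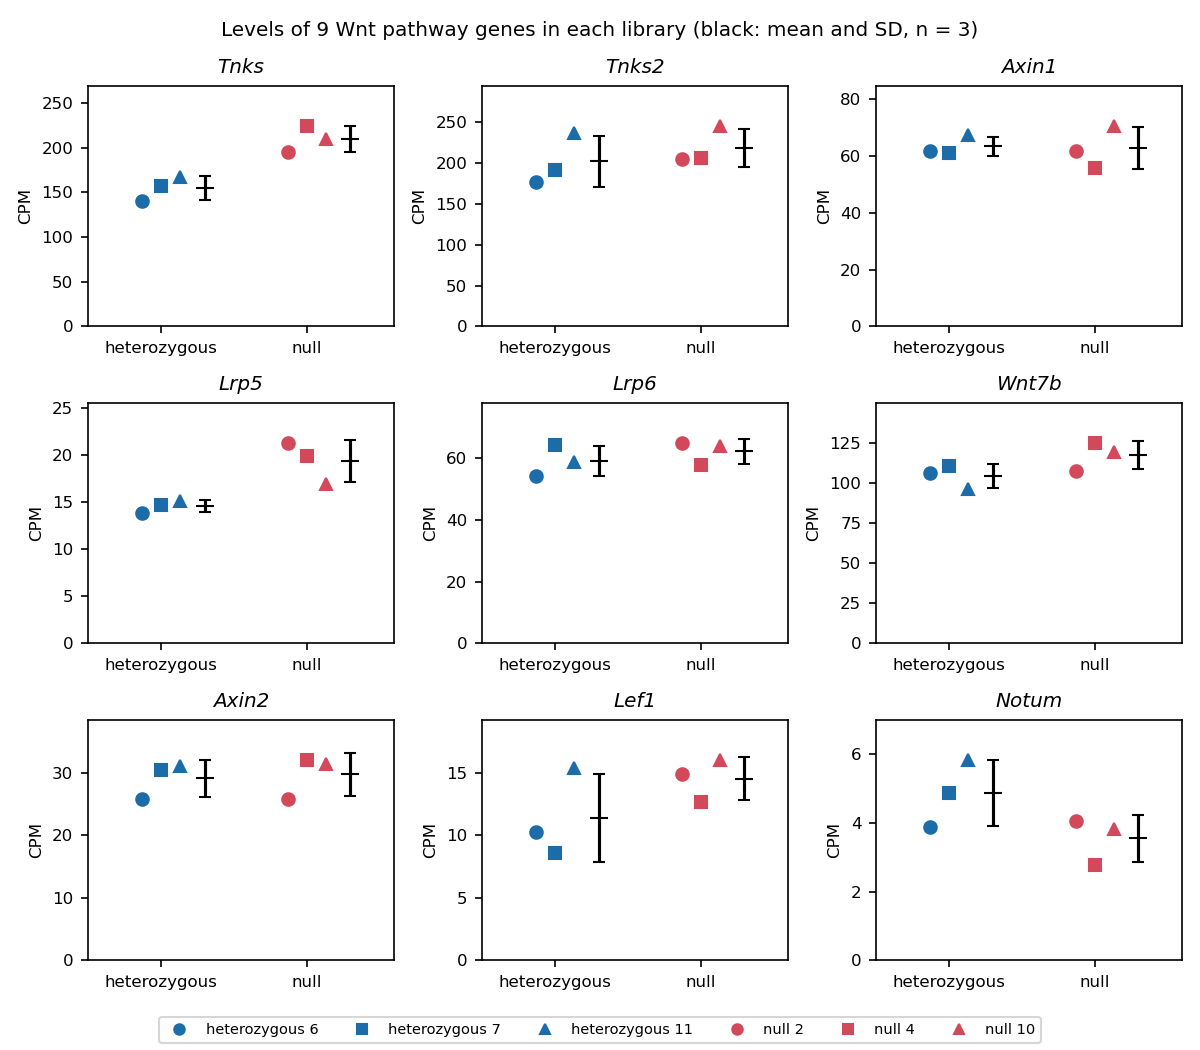
Level in CPM of 9 Wnt pathway genes in each library, heterozygous in blue and null in red, with the mean and SD (n = 3) in black and axes starting at 0. The 3 null points lie above the 3 heterozygous points for Tnks (196 to 224 against 141 to 168 CPM) and Lrp5 (16.9 to 21.3 against 13.9 to 15.1 CPM), and the groups overlap for the other 7 genes.

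Among the ligands tested, 6 of 15 had positive and 9 negative fold changes, with a median of -0.07, and 0 had an unadjusted p under 0.05. Wnt7b measured 106, 111 and 96.4 CPM in the heterozygous libraries and 108, 125 and 119.5 CPM in the null libraries. Null 2 lay inside the heterozygous range and the other null libraries above it (0.17, SE 0.08, 95% interval -0.02 to 0.36, edgeR adjusted p = 0.742). Wnt7a measured 28.1, 26.4 and 22.9 CPM (heterozygous) against 21.7, 26.4 and 19.4 CPM (null), also with overlap (-0.20, SE 0.14, 95% interval -0.50 to 0.10, edgeR adjusted p = 0.844). Its value was -0.10 without null 10 and -0.33 without null 4.

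Both ligands act on brain endothelium, and each overlapped between the groups when taken alone. Wnt7a was at 0.368, 0.332 and 0.330 times Wnt7b per kilobase in heterozygous 6, 7 and 11 and at 0.281, 0.294 and 0.225 times in null 2, 4 and 10, without overlap. As a share of the summed ligand level per kilobase, Wnt7b took 46.6 ± 1.64% in heterozygous and 51.1 ± 1.56% in null libraries, and Wnt7a 16.0 ± 1.38% and 13.6 ± 1.58%. These ratios and shares were chosen after the values were seen and carry no test. Markers of endothelium and pericytes summed to 228 to 259 CPM in heterozygous and 236 to 290 CPM in null libraries, which overlap. The 6 astrocyte markers summed to 1166 to 1240 CPM and 863 to 1112 CPM, without overlap. All 6 had negative fold changes and none was at 0. Much of that sum was Apoe, at 640 to 699 CPM and 429 to 572 CPM. Singly, only 2 of the 6 (Apoe and S100b) did not overlap between the groups. The 4 telencephalic markers, 463 to 512 CPM against 642 to 677 CPM, did not overlap either. The part of these lists in the ratio of Wnt7a to Wnt7b was not tested.

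Wnt2b, a ligand of the cortical hem and its surroundings, measured 6.08, 5.75 and 5.87 CPM in the heterozygous libraries and 6.85, 6.22 and 6.70 CPM in the null libraries. The groups did not overlap, but the distance was small (0.16, SE 0.15, 95% interval -0.17 to 0.48, edgeR adjusted p = 0.893). Wnt8b, expressed along the medial pallium from which the hippocampus forms, had the largest fold change of the set. It measured 1.21, 0.404 and 1.28 CPM (heterozygous) against 2.24, 1.57 and 1.19 CPM (null), so null 10 lay below heterozygous 6 and 11. With a mean of 41.2 counts its interval was wide (0.76, SE 0.40, 95% interval -0.12 to 1.64, edgeR adjusted p = 0.765). The value was 0.41 without heterozygous 7, the lowest library. Wnt2, with a mean of 9.33 counts, measured 0.242, 0.437 and 0.114 CPM (heterozygous) against 0.551, 0.355 and 0.136 CPM (null). Its change of 0.40 became -0.04 without null 2. The 5 markers of cortical hem and Cajal-Retzius cells (Lmx1a, Trp73, Reln, Lhx1 and Calb2) summed to 374 to 447 CPM in heterozygous and 489 to 537 CPM in null libraries, without overlap, although 3 of the 5 had negative fold changes. Reln alone made that separation, since without it the sums were 129, 98.3 and 103 CPM in heterozygous and 90.4, 95.6 and 100.1 CPM in null libraries, which overlap. None of the list was at 0, and its part in the Wnt2b and Wnt8b values was not tested.

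The other ligands tested overlapped between the groups. Wnt5a, with 4 overlapping matches to the GU-rich element, measured 14.8, 20.1 and 19.1 CPM in the heterozygous libraries and 12.6, 15.4 and 19.5 CPM in the null libraries (-0.18, 95% interval -0.56 to 0.20). Wnt9a, at 2.90 ± 0.74 and 3.72 ± 0.25 CPM, had a fold change of 0.36, and the remaining ones lay between -0.23 (Wnt16) and 0.12 (Wnt9b). Some low ligands sit beside more abundant ones in the genome. In RefSeq gene order, 4 pairs of these genes are direct neighbours among protein-coding genes, on chromosomes 1, 11 and 15. In heterozygous libraries Wnt10a was at 0.0879 CPM per kilobase beside Wnt6 at 1.74. Wnt3a was at 0.0869 beside Wnt9a at 0.873. Wnt9b was at 0.596 beside Wnt3 at 2.61, and Wnt10b at 0.132 beside Wnt1 at 0.376. The lower member of each pair was the lower one in null libraries too.

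The Frizzled receptors were evenly spread around 0, with 6 positive and 4 negative fold changes and a median of 0.05, and 0 of 10 had an unadjusted p under 0.05. Fzd3 measured 112, 107 and 131 CPM in the heterozygous libraries and 110.3, 97.7 and 136 CPM in the null libraries (-0.03, SE 0.12, 95% interval -0.29 to 0.24). Fzd1, a receptor for canonical ligands, measured 28.1, 38.4 and 40.1 CPM (heterozygous) against 35.1, 36.0 and 43.0 CPM (null), with a log2 fold change of 0.10 (95% interval -0.22 to 0.41). In both genes the spread within a group exceeded the distance between the groups. Fzd8, a receptor of cortical progenitors, measured 11.8, 12.1 and 10.5 CPM (heterozygous) against 16.7, 14.0 and 11.6 CPM (null), with null 10 inside the heterozygous range (0.30, SE 0.15, 95% interval -0.04 to 0.64, edgeR adjusted p = 0.758). Fzd5 measured 5.70, 3.80 and 3.79 CPM (heterozygous) against 5.24, 6.40 and 4.55 CPM (null). Its value of 0.28 was 0.51 without heterozygous 6 and 0.14 without null 4. Fzd6, a receptor known for planar polarity, was at 15.2 ± 2.43 and 13.8 ± 0.59 CPM (-0.14, 95% interval -0.45 to 0.17). Fzd4, the vascular receptor for norrin, was at 7.20 ± 1.33 and 7.44 ± 1.19 CPM.

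Secreted inhibitors were also close to 0, with 2 positive and 4 negative values among 6 tested, a median of -0.03 and 0 with an unadjusted p under 0.05. Sfrp1 measured 74.2, 75.3 and 61.2 CPM in the heterozygous libraries and 81.9, 78.7 and 69.2 CPM in the null libraries (0.12, SE 0.10, 95% interval -0.10 to 0.35). Dkk3 measured 64.3, 64.9 and 76.3 CPM (heterozygous) against 50.1, 85.2 and 81.7 CPM (null). Null 2 was the lowest library for it and the other null libraries the highest, and the fold change of 0.08 became 0.29 without null 2. Sfrp4 measured 3.31, 2.79 and 1.77 CPM (heterozygous) against 2.24, 3.05 and 1.09 CPM (null), and its value of -0.29 became 0.02 without null 10. Dkk2, which acts on Lrp5 and Lrp6, measured 2.39, 3.03 and 3.22 CPM (heterozygous) against 2.76, 2.01 and 2.89 CPM (null), with a log2 fold change of -0.18 (95% interval -0.67 to 0.32) that was -0.03 without null 4. Markers of meninges and fibroblasts, tissues in which several Wnt inhibitors are expressed, varied from 137 to 330 CPM in heterozygous and from 211 to 282 CPM in null libraries, which overlap.

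Readouts of canonical signalling did not separate the groups. Axin2, the most widely used target gene, measured 25.8, 30.4 and 31.1 CPM in the heterozygous libraries and 25.8, 32.0 and 31.4 CPM in the null libraries. The fold was 1.02, with a 95% interval of 0.849 to 1.23 (log2 fold change 0.03, SE 0.12, edgeR adjusted p = 0.982). Its sign depended on the setting, with -0.04 under library size alone. Nkd1, an inhibitor that binds Dishevelled, measured 33.7, 38.2 and 40.9 CPM (heterozygous) against 39.3, 41.1 and 43.2 CPM (null), with a log2 fold change of 0.13 (SE 0.10, 95% interval -0.10 to 0.36). Notum, an enzyme that removes the lipid from Wnt proteins, measured 3.90, 4.88 and 5.84 CPM (heterozygous) against 4.06, 2.78 and 3.84 CPM (null). Only null 2 entered the heterozygous range of Notum, but its interval included 0 (-0.46, SE 0.22, 95% interval -0.93 to 0.02, edgeR adjusted p = 0.728). Lgr5, a receptor for R-spondins, measured 2.55, 2.93 and 2.51 CPM (heterozygous) against 1.73, 2.96 and 2.48 CPM (null), with a log2 fold change of -0.14 (95% interval -0.66 to 0.37). Its value became 0.04 without null 2. Znrf3 and Rnf43, ubiquitin ligases that remove Frizzled from the cell surface, had values of -0.02 and 0.02.

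Of the transcription factors, Lef1 measured 10.3, 8.55 and 15.3 CPM in the heterozygous libraries and 14.9, 12.7 and 16.0 CPM in the null libraries. Heterozygous 11 lay among the null libraries (0.35, SE 0.20, 95% interval -0.10 to 0.79, edgeR adjusted p = 0.805), and the value was 0.62 without it and 0.18 without heterozygous 7. Tcf7l2, a related factor abundant in thalamus, measured 160, 96.0 and 167 CPM (heterozygous) against 195, 151 and 184 CPM (null), so heterozygous 7 was the lowest library for both genes. Heterozygous 7 also had the highest Hox sum, 81.1 CPM. The other 4 thalamic and habenular markers summed to 97.6, 94.0 and 113.6 CPM in heterozygous and 89.7, 89.5 and 119.3 CPM in null libraries. In that sum heterozygous 7 was the lowest of its group but not of all libraries. Of the 4, Lhx9 was lowest in heterozygous 7, at 34.1, 25.3 and 50.4 CPM against 40.5, 33.6 and 52.4 CPM. Gbx2, Pou4f1 and Rora were lowest in other libraries. The part of the Hox, thalamic and habenular markers in the Lef1 values was not tested. Tcf7 measured 6.13, 6.83 and 7.72 CPM (heterozygous) against 6.14, 6.63 and 6.80 CPM (null), with a log2 fold change of -0.08 (95% interval -0.42 to 0.27).

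The 3 genes whose GU-rich element is printed above had fold changes of -0.18 (Wnt5a), 0.07 (Lrp6) and -0.08 (Tcf7). None of them (0 of 3) had an edgeR unadjusted p under 0.05, against 7.06% of all genes, and 3 genes are too few for a comparison. Tnks and Lrp5, which had the smallest p-values, did not hold the element in the 3′ UTR searched. The lack of this exact match in the longest 3′ UTR does not show a lack of binding.

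Each library was the highest for some of the 44 genes tested and the lowest for others. Heterozygous 6 was the lowest library for 13 genes and the highest for 4, whereas null 2 was the highest for 10 and the lowest for 7. The median deviation from a gene's mean, on the scale of log2(CPM + 0.5), was -0.10, 0.04 and 0.06 in heterozygous 6, 7 and 11 and 0.003, 0.07 and 0.03 in null 2, 4 and 10.

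The rest of the pathway was followed in 66 other genes in 5 lists, of which 64 were tested. Again 0 passed edgeR's adjusted test, 4 (6.25%) had an unadjusted p under 0.05 and higher values, against 4.13% of all genes, and 0 had lower ones, against 2.93%. The groups did not overlap, with null above, for 6 of the 64, against 6.21% of all genes. With null below this held for 1, against 6.47%. Fold changes were positive for 44 and negative for 20 (68.8% positive, against 49.7% of all genes), with a median of 0.07. Of the 17 cytoplasmic transducers 14 were positive, and their median was 0.06. Apc2, a neuronal relative of the destruction complex protein Apc, was at 707 ± 38.5 and 789.6 ± 23.6 CPM (0.16, SE 0.06, edgeR adjusted p = 0.653). Csnk1d, a casein kinase, was at 229 ± 13.4 and 264 ± 8.35 CPM (0.20, SE 0.07, edgeR adjusted p = 0.579). Neither overlapped between the groups. Ctnnb1, which encodes beta-catenin itself, was at 837 ± 31.5 and 902 ± 49.0 CPM with overlap (0.11, edgeR adjusted p = 0.81).

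Of 7 planar polarity genes 6 were positive (median 0.07), and Celsr1, a cadherin of that system, measured 39.4, 29.5 and 29.1 CPM in the heterozygous libraries and 41.7, 53.3 and 38.7 CPM in the null libraries (0.45, SE 0.15, edgeR adjusted p = 0.588). Heterozygous 6 lay just above null 10. Of 15 nuclear partners and further target genes tested 9 were positive (median 0.13), and Pygo1, a beta-catenin co-activator, was at 23.6 ± 2.19 and 30.2 ± 1.06 CPM without overlap (0.35, SE 0.11, edgeR adjusted p = 0.527). Ligand secretion and extracellular modulators had a median of 0.04 and other receptors 0.14, and none of their 25 genes had an unadjusted p under 0.05. Wls, which carries Wnt proteins to the cell surface, was at 37.2 ± 5.67 and 38.3 ± 3.55 CPM.

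**Figure D4:**
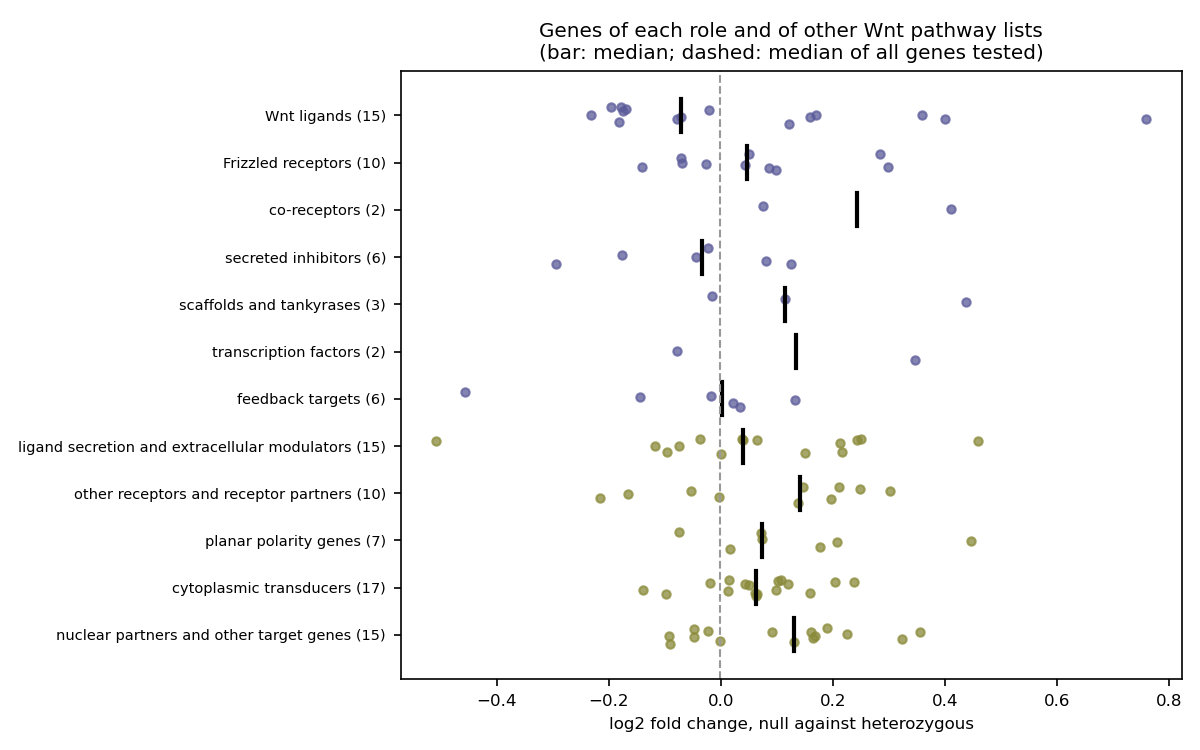
Log2 fold change, null against heterozygous, of each Wnt gene tested by role (blue) and of 5 lists of other pathway genes (olive), 1 point per gene and the number tested in brackets, with the median as a black bar and the median of all genes tested (-0.001) as a dashed line. Ligands, inhibitors and feedback targets have medians near 0, and most cytoplasmic transducers lie slightly to the right of it.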

How the data were processed

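The authors deposited whole-number counts for each gene symbol and library, 6 libraries in all, beside a gene length in bases. The labels' protocols name TRIzol extraction and a kit for stranded total RNA, while the design text names poly(A) RNA, and this conflict was not resolved here. STAR, cutadapt, mm9 and hg19 appear as names, without a role, in the submitters' processing notes. How reads were assigned to genes is not given in the sources used here. Overlapping and antisense genes are therefore uncertain. The table held 0 columns of other samples.

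Genes were kept by filterByExpr (15925 of 24391) and tested with edgeR's quasi-likelihood test (version 4.0.16, R 4.3.3, TMM factors, robust dispersion). P-values were adjusted by Benjamini-Hochberg over all genes, at 0.05. The SE was taken as the log2 fold change over the root of the F statistic. Alternatives were DESeq2 1.42.0, limma-voom (limma 3.58.1), other scaling, filters and dispersion, removal of structural RNAs, and omission of each library. The edgeR fit with its main settings was first run on simulated counts, and the other steps were not. The smallest chi-square per gene between 2 libraries was 13.4, so no library repeats another. That pair was heterozygous 11 and null 10, so the most alike libraries carry different genotype labels. The smallest value within a group was 17.8, for heterozygous 7 and 11. Separate litters are not stated, so p-values measure the spread between these samples, which may be technical.

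The members and lists were chosen with earlier results of these data known. Values in every library are given for members called, with an unadjusted p under 0.05, or with at least 50 mean counts and no overlap, and for the 2 with the highest CPM per kilobase and the 2 with the largest fold change in each role. Other pathway genes are named where their unadjusted p is under 0.05. Further genes given with values, such as Axin1, Wnt5a, Wnt9a, Fzd4, Fzd6, Ctnnb1, Wls and Tcf7l2, were named after their values were seen. Some telencephalic markers and 1 element site are not reported here, and the sum over the 4 markers kept was made after the data were seen.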

Additional observations from a re-analysis of the deposited data

How the results depend on the processing

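The count of all genes called, 1 by edgeR, was 0 with DESeq2 size factors, a CPM minimum of 1 in 3 libraries, limma-voom, no robust dispersion or structural RNAs removed, 2 with upper-quartile factors or library size alone, 3 without a low-count filter and 64 with DESeq2, and lay between 0 and 4 when single libraries were left out. The count of Wnt genes called was 0 in all of these except DESeq2, which called 1 (Tnks). The count at an unadjusted p of 0.05, 2 of 44, lay between 2 and 3 under the other settings and between 2 and 6 when single libraries were left out. It was 6 without heterozygous replicate 11, where 9.69% of all genes had such a p against 7.06% with every library, 5 without null replicate 2 (5.62%), and 4 without heterozygous replicate 6 (5.24%) or null replicate 10 (8.87%), and Tnks and Lrp5 were among them in each fit. Library size alone shifted the median of all genes to -0.086 and turned the sign of Axin2 (-0.044) and Lrp6 (-0.014). Leaving out single libraries gave ranges that crossed 0 for Axin2 (-0.046 to 0.127), Dkk3 (-0.055 to 0.287), Fzd1 (-0.046 to 0.195), Fzd3 (-0.166 to 0.077), Lgr5 (-0.33 to 0.037), Sfrp4 (-0.665 to 0.021), Tcf7 (-0.156 to 0.012) and Wnt2 (-0.04 to 0.919). It moved the value by over 1.5 times, with no change of sign, for Dkk2 (-0.295 to -0.026), Fzd5 (0.14 to 0.51), Fzd8 (0.161 to 0.423), Lef1 (0.18 to 0.621), Lrp6 (0.017 to 0.139), Nkd1 (0.059 to 0.198), Notum (-0.595 to -0.303), Sfrp1 (0.034 to 0.193), Tnks2 (0.023 to 0.245), Wnt7a (-0.329 to -0.098) and Wnt8b (0.413 to 1.004), and by less for Tnks, Lrp5, Wnt2b and Wnt7b. Over the values of 23 named genes under each alternative, 328 kept sign and side of the threshold, 15 changed sign and 1 passed it. No paired analysis was possible because the groups share no replicate number. Genes under 50 mean counts, 5 of the 44, are limited by depth.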
